A study of Mus musculus with 16 samples.

Results

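The immediate early genes Fos, Fosb, Jun, Junb, Egr1, Egr2, Egr3, Atf3, Ier2 and Dusp1 were followed across bulk RNA-seq libraries of 16 MC38 tumors. They were taken from a fixed list by symbol, and all 10 were found among the 53465 genes of the count table. MC38 is a mouse colorectal carcinoma line. The cells were injected under the skin of the right flank of female C57BL/6 mice aged 6 to 8 weeks, so that all groups share the cell line, site and host. Mice whose tumor measured 150 to 250 mm3 on day 16 received 200 µg of control IgG (8 tumors) or of an antibody against PD-1 (aPD-1, 8 tumors) on days 16 and 20, and tumors were taken on day 21. The labels split the aPD-1 tumors into 6 non-responders (NR) and 2 responders (R), a status the study assigned from CD8 T cell staining of the tumors. RNA came from 2 sections of 100 µm of the frozen part of each tumor, and each tumor is a separate mouse.

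Immediate early genes are transcribed within minutes of a stimulus without new protein synthesis, from promoters that carry factors already present in the resting cell. Kinase cascades reach these promoters mainly through serum response factor, which binds the CArG box, and through CREB and ATF proteins, which bind the cAMP response element. FOS and JUN proteins pair to form the transcription factor AP-1, EGR proteins bind a GC-rich site, and DUSP1 switches the kinases off again. The same genes respond to growth factors, to antigen receptor engagement, to low oxygen and to the handling of excised tissue, and a bulk level taken at one time holds all of these together.

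On GRCm38 the AP-1 genes are spread over 4 chromosomes: Fos at 85473890 to 85477273 of chromosome 12, Fosb at 19302696 to 19310051 of chromosome 7, Jun at 95049034 to 95052222 of chromosome 4 and Junb at 84974484 to 84978718 of chromosome 8. Egr1 lies on chromosome 18 at 34859823 to 34864984, Egr2 on chromosome 10 at 67535475 to 67542188 and Egr3 on chromosome 14 at 70077203 to 70082614. Atf3 spans 191170296 to 191218039 of chromosome 1, Ier2 84661331 to 84662852 of chromosome 8 and Dusp1 26505590 to 26562128 of chromosome 17. Jun and Junb share 232 and 173 exonic bases with a gene on the opposite strand, Junos and Prdx2. The library kit kept strand, but whether counting used it is not given in the sources used here, so reads from those bases cannot be assigned with certainty.

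Total counts ran from 26603497 to 39948901 per tumor, and every member held between 44 and 10361 counts in every tumor, so that all 10 passed the filter that left 18251 genes to test. In 3 tumors, IgG replicate 1 and NR replicates 9 and 14, mitochondrially encoded genes took 5.73% to 7.60% of counts, against 2.52% to 3.25% in the other 13. Most epithelial markers listed for the labelled colorectal carcinoma were nearly absent from most tumors. Epcam averaged 0.487 ± 0.353 CPM (the counts-per-million scale, SD, n = 8) in IgG and 0.401 ± 0.241 (SD, n = 6) in NR tumors. Cdx2 lay under 0.1 CPM in every group. Cdh1, on the same list, went the other way, with means of 4.72 CPM in IgG and 5.34 CPM in NR tumors. In the responders Epcam reached 7.98 ± 3.77 CPM (SD, n = 2). Markers of T cells, B cells and fat cells were also far higher in the responders, with values given beside the results they touch. In bulk tissue, fewer cells of a type and less RNA per cell cannot be told apart.

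Promoter windows from RefSeq (GRCm38.p6) were at hand for Fos, Fosb, Jun, Junb, Egr2, Atf3 and Dusp1, and the 250 bases before each transcription start were searched on both strands. The core TGACG of the cAMP response element stood in the windows of 6 of these 7 genes, all but Jun, against 19.8% of the 27025 genes with a window. A gene counted when any of its windows held the motif. Egr2 has 5 windows, where the 27025 genes have 32851 together, so a match in Egr2 is easier to find. The full element TGACGTCA, which holds the core on both strands, was found in Dusp1 alone and in 1.77% of all genes. A CArG box was found in Egr2 alone and in 1.62% of all genes. The AP-1 site TGANTCA stood in 0 of the 7 and in 7.82% of all genes, the EGR site GCGNGGGCG in Fosb and 5.33%, the motif TATAAA in Fos and 14.3%, and the ETS core CCGGAA in Egr2 and 13.6%. The last 150 bases before the start are shown for Egr2 (at 1 of its 5 listed starts), which is the member with a window that was called higher in responders, and for the AP-1 genes Fos, Junb and Jun, which differ in the cores they hold. They run 5′ to 3′ on the strand of the gene. Capitals mark the TGACG core in either direction and, in Egr2, the CArG box, which lies 72 to 63 bases before the start. The printed stretches overlap no annotated exon.
Egr2, chr10:67537719-67537868, plus strand: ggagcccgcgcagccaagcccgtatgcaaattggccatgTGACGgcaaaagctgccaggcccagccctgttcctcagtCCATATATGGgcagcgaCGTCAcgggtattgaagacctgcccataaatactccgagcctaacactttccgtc
Fos, chr12:85473740-85473889, plus strand: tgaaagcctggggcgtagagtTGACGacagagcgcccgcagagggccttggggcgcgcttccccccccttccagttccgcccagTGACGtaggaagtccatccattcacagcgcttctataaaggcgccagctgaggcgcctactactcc
Junb, chr8:84978749-84978898, minus strand: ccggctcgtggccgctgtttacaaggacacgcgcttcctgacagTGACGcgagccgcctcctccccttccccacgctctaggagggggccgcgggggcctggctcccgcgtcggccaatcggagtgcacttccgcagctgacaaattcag
Jun, chr4:95052223-95052372, minus strand: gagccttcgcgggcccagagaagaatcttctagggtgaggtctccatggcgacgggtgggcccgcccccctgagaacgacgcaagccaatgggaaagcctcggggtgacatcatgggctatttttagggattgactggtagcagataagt
The Fos window carried its cores at 129 to 125 and 66 to 62 bases before the start and the Junb window at 106 to 102, while the Jun window held none of the capitalised motifs. These matches describe the letters only.

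Jun and Junb, which encode the DNA-binding JUN partners of AP-1, were the most abundant members. Fosb had the lowest mean per kilobase of exon. Without regard to length Egr2 was lowest, at a mean of 3.41 CPM against 4.33 for Fosb. Per kilobase of exon, Jun averaged 72.5 ± 17.8 CPM (SD, n = 16), Junb 40.7 ± 8.29 and Ier2 18.9 ± 5.64. In all 16 tumors Jun lay above Junb, Junb above Ier2, and Ier2 above Atf3, which averaged 8.51 ± 3.19 CPM per kilobase. The middle of the order was less fixed. Dusp1 averaged 6.03 ± 1.47, Egr1 4.60 ± 2.23 and Fos 3.74 ± 1.13 CPM per kilobase, with Atf3 above Dusp1 in 13 tumors, Dusp1 above Egr1 in 13 and Egr1 above Fos in 11. Egr3 at 1.03 ± 0.987, Egr2 at 1.00 ± 0.521 and Fosb at 0.693 ± 0.177 CPM per kilobase closed the list. Egr3 exceeded Egr2 in 8 of 16 tumors and Egr2 exceeded Fosb in 10, so these neighbors did not differ beyond their spread.

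**Figure D1:**
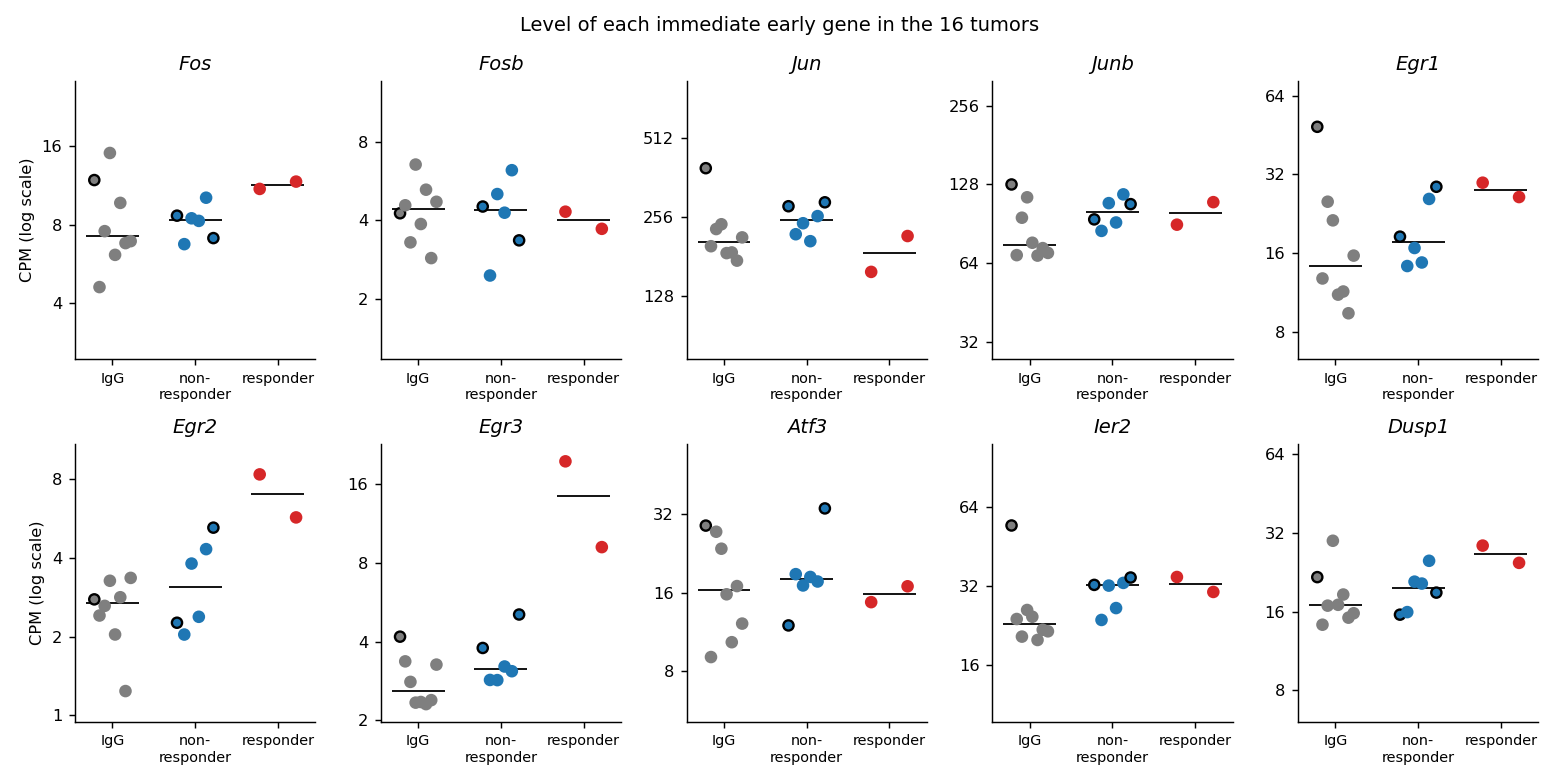
Level of each member in CPM (log axis, same fold range in every panel) in the 8 IgG, 6 non-responder and 2 responder tumors. Each point is a tumor, the line is the group median, and a black ring marks the 3 tumors with a mitochondrially encoded share of 5.73% or more. Only the Egr2 and Egr3 panels show both responders above all other tumors.

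Treatment by itself moved no member past the threshold. A gene was called when its edgeR p, adjusted over all genes, was under 0.05 and it differed by more than 1 on the log2 scale. With all 8 aPD-1 tumors set against the 8 IgG tumors, 0 of 10 members and 0 of all 18251 genes (0%) were called. DESeq2 called 90 genes here, and a weighted contrast of the edgeR fit of 3 groups called 234, with 0 members in either. Under that contrast Egr3 was at 0.79 (adjusted p = 0.0371), short of the fold threshold. At an unadjusted p below 0.05 stood 2 of 10 members, Egr2 and Egr3, where 13.5% of all genes did. Egr3 differed by 1.11 ± 0.39 on the log2 scale (SE, edgeR adjusted p = 0.222) and Egr2 by 0.73 ± 0.29 (SE, adjusted p = 0.273). The other 8 members lay between -0.06 (Fosb) and 0.22 (Ier2), with adjusted p of 0.564 or more. For Jun the 95% interval ran from -0.28 to 0.36, and for Egr1 from -0.43 to 0.77. When counts were simulated at the same depth, 59% of genes changed 2-fold and 86% of those changed 4-fold were recovered in this comparison. Recovery there went by adjusted p alone. Recovery with the fold threshold added, as in the calls here, was not tested. Nor was it tested with the spread that the 2 responders add to the aPD-1 group.

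Between non-responders and IgG tumors no member passed either. Again edgeR called 0 of 10 members and 0 of 18251 genes (0%), DESeq2 called 0 members and 4 genes, and 0 members against 3.8% of all genes reached an unadjusted p below 0.05. Differences ran from -0.06 for Fos to 0.38 for Egr2 on the log2 scale, all with edgeR adjusted p of 0.987 or more. Junb, which read 0.21 ± 0.15 (SE), had an interval of -0.08 to 0.51.

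The responders differed in Egr2 and Egr3. Both encode zinc finger factors that are induced by antigen receptor signaling in T cells, among other stimuli, where they restrain the response. Egr3 read 19.6 and 9.20 CPM in R replicates 15 and 16. It read 2.85 to 5.08 CPM in NR tumors (median 3.15) and 2.31 to 4.18 CPM in IgG tumors (median 2.599). Both responders thus stood above all 14 other tumors and did not overlap with them. The log2 fold change was 2.05 ± 0.28 (SE) against NR (edgeR adjusted p = 5.16e-05) and 2.32 ± 0.26 against IgG (adjusted p = 4.48e-06).

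Egr2 showed the same order with a smaller gap. It read 8.34 CPM in R replicate 15 and 5.71 in R replicate 16, against 2.04 to 5.22 CPM in NR tumors (median 3.09) and 1.24 to 3.35 CPM in IgG tumors (median 2.70). The highest non-responder, replicate 14, lay close below the lower responder. Egr2 differed from NR by 1.07 ± 0.36 on the log2 scale (SE, edgeR adjusted p = 0.044) and from IgG by 1.45 ± 0.34 (adjusted p = 0.00426). The call against NR was fragile. It was lost when any of IgG replicates 2, 3, 5 and 6, NR replicates 9, 10, 11 and 12 or R replicates 15 and 16 was left out, with adjusted p of 0.052 to 0.532. In these fits the log2 fold change itself was 0.71 without R replicate 15, 1.27 without R replicate 16, 1.07 to 1.09 without an IgG tumor and 0.90 to 1.12 without an NR tumor. The call against IgG was lost without R replicate 15 (1.08, adjusted p = 0.201). Egr3 kept both calls under every alternative run, at 1.33 without R replicate 15 and 2.44 without R replicate 16 against NR.

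These 2 of 10 members stood against 13.2% of all genes called between R and NR, 12.5% higher and 0.663% lower. Against IgG the same 2 members were called, with 15% of all genes (14.3% higher and 0.641% lower). Both responders exceeded every NR tumor for 3 of 10 members, Fos, Egr2 and Egr3, where 21.5% of all genes did so, and every IgG tumor for Egr2 and Egr3, where 19.3% did. Both comparisons share the 2 responder tumors. Without the 3 tumors of high mitochondrial share, Egr2 and Egr3 stayed called in both, Egr2 at 1.11 (adjusted p = 0.0281) and Egr3 at 2.20 (adjusted p = 2.08e-05) against NR.

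The 8 members left did not pass between R and NR. Fos, the classical AP-1 partner of JUN, read 10.97 and 11.7 CPM in the responders and 6.74 to 10.2 CPM in NR tumors (median 8.37), with no overlap, yet IgG tumors spanned 4.62 to 15.1 CPM around both. Its log2 fold change against NR was 0.46 ± 0.32 (SE, edgeR adjusted p = 0.367). Dusp1, the phosphatase that inactivates stress and mitogen-activated kinases, read 28.6 and 24.6 CPM in responders and 15.6 to 25.1 in NR tumors (0.45 ± 0.23, adjusted p = 0.206). Egr1 read 29.7 and 26.2 CPM against 14.3 to 28.7 in NR tumors (0.50 ± 0.48, adjusted p = 0.538). Jun pointed the other way, at 158.0 and 216.7 CPM in responders and 207.1 to 291.6 CPM in NR tumors (-0.42 ± 0.26, adjusted p = 0.299). Fosb (-0.10), Junb (-0.01), Atf3 (-0.31) and Ier2 (0.10) had adjusted p of 0.686 or more. In simulated counts, 31% of genes changed 2-fold and 67% of those changed 4-fold were recovered with 2 against 6 tumors. This too went by adjusted p alone, without the fold threshold.

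**Figure D2:**
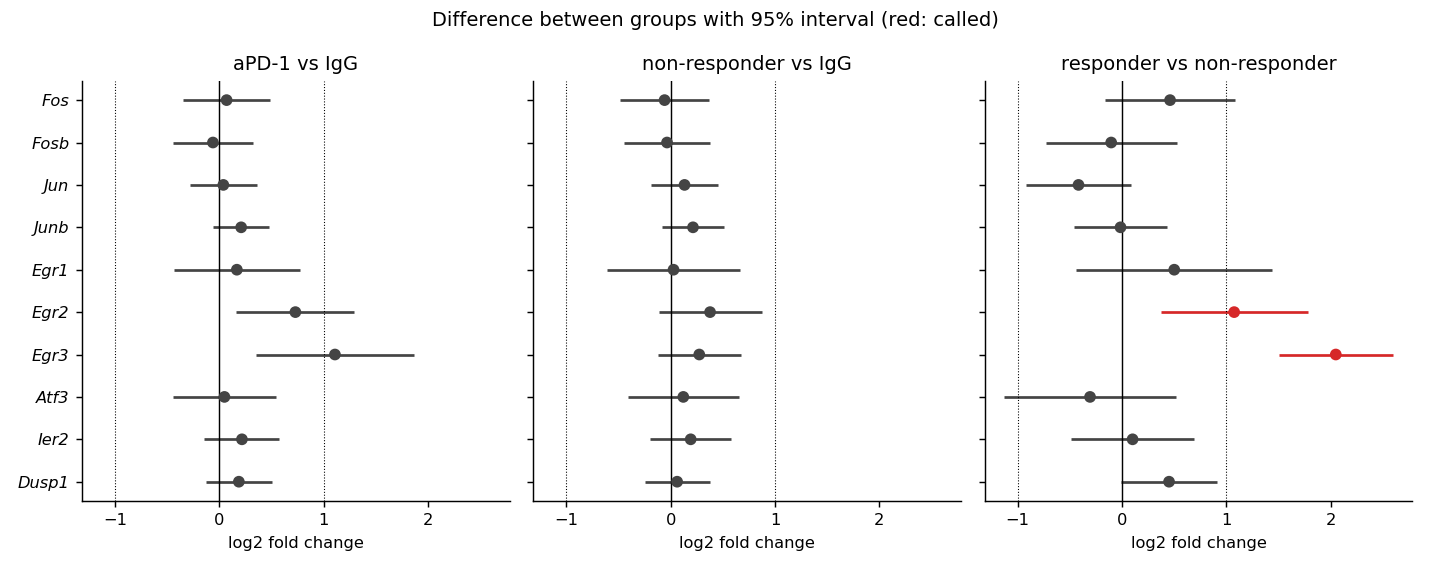
Log2 fold change of each member (point) with its normal 95% interval (bar) in 3 comparisons, with dotted lines at a log2 fold change of 1 in either direction. Red marks the members called, Egr2 at 1.07 and Egr3 at 2.05 in responders against non-responders, and no bar is red in the other panels.

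Lymphocyte markers moved with the same tumors. The summed level of 10 T cell markers was 296.3 and 310.8 CPM in the responders, 16.3 to 44.2 in NR and 11.5 to 35.4 CPM in IgG tumors, and 10 of 10 were called higher than in NR. As the responders were chosen by CD8 staining, this list is no independent result. Of 9 tested T cell activation genes, 4 were called higher: Irf4 (4.47), Cd69 (1.87), Il2ra (1.34) and Tnfrsf4 (1.34, log2 fold change), while Il2 itself stayed under 0.1 CPM in every group. All 10 B cell markers (389 to 1524 CPM summed in responders, at most 9.47 elsewhere) and all 8 fat cell markers (411.9 and 2235 against at most 170.6 CPM) were called higher too. So were 3 of 10 endothelial, 2 of 10 fibroblast, 1 of 8 macrophage, 2 of 7 neutrophil, 4 of 8 Schwann cell, 1 of 8 keratinocyte and 4 of 6 epithelial markers, and 0 of 8 skeletal muscle markers. Over all genes the share called higher was 12.5%. Skeletal muscle genes summed to 2127 CPM in the highest IgG tumor and to at most 86.2 CPM in NR and R tumors. The part of these cell types in the Egr2 and Egr3 difference was not tested, nor was whether the responder sections held tissue from beside the tumor.

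The genes most like Egr3 over the 16 tumors, among genes of at least 1 CPM, were N4bp2l1 (r = 0.98), the survival gene Bcl2 (0.97) and the prostaglandin receptor gene Ptger4 (0.97). Over the 14 tumors without the responders the same 3 stood at 0.85, 0.87 and 0.85. For Egr2 they were the complement gene C1ra (0.90), Ifi206 (0.89) and the sterol exporter gene Abcg1 (0.89), and 0.80, 0.81 and 0.77 over the 14. All tumors share depth and scaling within a library, and these values are descriptions.

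Of 27 other immediate early genes tested, 8 were called higher in R than in NR and 0 lower, beside 12.5% and 0.663% of all genes. Their median log2 fold change was 0.18 against 0.02 for all genes. Arc, best known from neurons, was higher by 2.601 ± 0.38 (SE, edgeR adjusted p = 0.0001) from a level of 0.394 CPM in NR tumors. Btg2, an antiproliferative gene, was higher by 2.31 ± 0.28 (adjusted p = 1.42e-05), at 68.4 ± 22.8 CPM (SD, n = 2) against 13.8 ± 3.53 (SD, n = 6). Gem (1.23), Csrnp1 (1.06) and Zfp36 (1.06), which encodes an RNA-binding protein that destabilizes cytokine messages, followed, with Nr4a3, Klf2 and Sik1. Another 4 were significant but short of the fold threshold, Gadd45b at 0.86 (adjusted p = 0.045), Ier5 at 0.42 (adjusted p = 0.0388), Klf10 at -0.51 (adjusted p = 0.0126) and Myc at -0.76 (adjusted p = 0.0229). The same 8 genes were called against IgG and none of the 27 in the other comparisons.

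Among other genes of the AP-1 family and its partners, Batf (1.86 ± 0.22, SE, edgeR adjusted p = 9.85e-06) and Batf3 (1.21 ± 0.28, adjusted p = 0.00534) were higher in R than in NR, 2 of 12. Atf4 read -0.63 (adjusted p = 0.0017) and Fosl1 -0.96 (adjusted p = 0.0631). Of 23 upstream kinases and factors, only the receptor gene Egfr was called (1.14 ± 0.25, adjusted p = 0.00344), while Srf, the CArG box factor, read 0.22 and Creb1 0.40. Among 14 feedback inhibitors, the nuclear phosphatase gene Dusp2 (2.06 ± 0.31, adjusted p = 0.000136) and the NF-kB inhibitor Tnfaip3 (1.03 ± 0.25, adjusted p = 0.00644) were higher. Dusp4, Dusp5 and Dusp6 were not called. These counts, 2 of 12, 1 of 23 and 2 of 14, stand beside 12.5% of all genes called higher in R than in NR.

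Of 15 known AP-1 and EGR target genes, Icam1, an adhesion molecule, was called higher in R than in NR (1.71 ± 0.24, SE, edgeR adjusted p = 7.08e-05), and Fasl joined it against IgG (1.74, adjusted p = 0.00265). The list's median was -0.16. Of 10 integrated stress genes, a group that Atf3 belongs to by regulation, 0 were higher and 2 lower, Trib3 (-1.21 ± 0.23, adjusted p = 0.00111) and Chac1 (-1.18 ± 0.28, adjusted p = 0.00643). None of 10 heat shock, 10 hypoxia and 10 proliferation genes was called between R and NR. Over all genes, 12.5% were called higher and 0.663% lower in that comparison.

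Tumors of a single group differed by about as much as for other genes. The SD of log2 CPM within groups ran from 0.29 (Junb) and 0.30 (Dusp1) to 0.55 (Atf3) and 0.63 (Egr1), against a median of 0.34 and a 90th percentile of 0.86 over all 18251 genes. Of the members, 7 lay above that median and 0 above the 90th percentile. The 3 groups held 82.0% of the variance of Egr3, 52.4% of that of Egr2 and 28.9% of that of Dusp1. For the other 7 members the share was between 0.947% (Fosb) and 18.4% (Jun), under the median of 19.3% over all genes. The split by treatment held 23.4% of the variance of Egr2 and of Egr3, 17.7% for Junb and 15.4% for Ier2, down to 1.04% for Jun and 0.786% for Fosb. The median over all genes was 4.85% and the 90th percentile 21.1%, and 6 members lay above the median.

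Single tumors stood out across several members. IgG replicate 1 was among the 3 highest tumors for 6 members and above its group mean for 9 of 10, by 0.58 in the median member on the log2 scale. It held the highest levels of Jun (393.7 CPM, against 174.5 to 240.3 in the other IgG tumors), Egr1 (48.6 against 9.42 to 25.2) and Ier2 (54.6 against 19.9 to 25.9). Its mitochondrially encoded share, 7.60% (95% Wilson interval 7.59% to 7.61%), was the highest of all tumors and its total count the lowest. IgG replicate 4, with a share of 2.61%, was also above its group mean for 9 of 10 members, but led in Fos (15.1 CPM), Fosb (6.54) and Dusp1 (29.9) instead. IgG replicate 5 lay below its group mean for all 10.

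Among non-responders, replicate 14 was in the top 3 for Jun, Egr1, Egr2, Egr3, Atf3 and Ier2, with 5.73% of counts from mitochondrially encoded genes. Its Atf3 level of 33.6 CPM was the highest of the 16 tumors, against 11.99 to 18.8 CPM in the other NR tumors. Replicate 9, with a share of 6.00%, was in the top 3 for Jun alone (281.6 CPM) and in the bottom 3 for Atf3 and Dusp1. Replicate 13 led its group in Fos (10.2 CPM), Fosb (6.22), Junb (117.2) and Dusp1 (25.1) at a share of 2.54%. High mitochondrial share and high member levels therefore coincided in some tumors and parted in others.

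**Figure D3:**
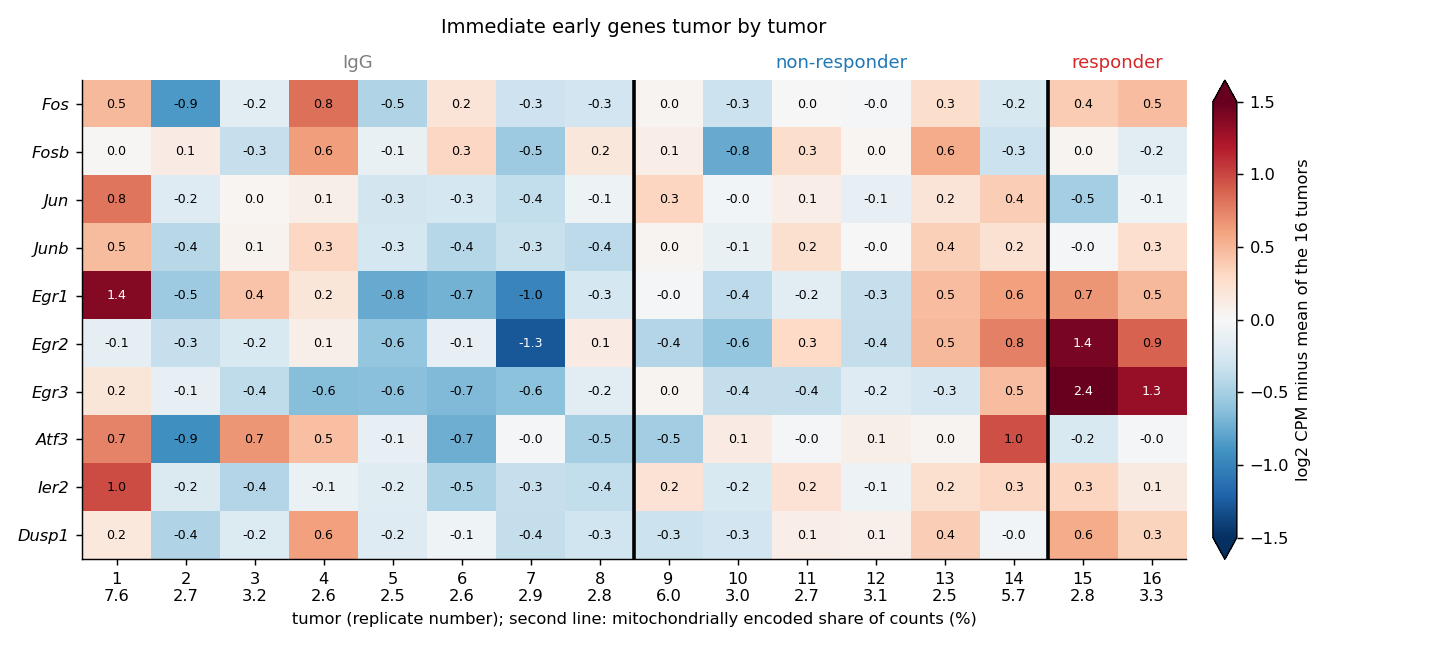
Log2 CPM of each member in each tumor minus its mean over the 16 tumors (color and number), with replicate numbers and the mitochondrially encoded share of counts in percent below. IgG replicate 1 is high in Egr1, Ier2 and Jun, IgG replicate 4 in Fos, Fosb and Dusp1, and both responders in Egr2 and Egr3.

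The members varied together from tumor to tumor. Of 45 pairs, 42 had a positive Pearson correlation of log2 CPM, with a median r of 0.47, where the median over all pairs of tested genes was -0.00 and the 90th percentile 0.61. Permutation tests with 100000 resamples, two-sided and adjusted over the 45 pairs, passed 16 pairs by Pearson's r, 14 by Spearman's rho and 12 by both. Fos and Dusp1, a kinase target and a kinase phosphatase, formed the closest pair, with r = 0.86 (adjusted permutation p = 0.00135) and rho = 0.81 (adjusted p = 0.0126). Without the 2 tumors farthest from the median of Fos r was 0.79, and over the 11 tumors that were neither responders nor of high mitochondrial share it was 0.91 (adjusted permutation p = 0.00292).

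Egr1 passed with 7 and Junb with 6 of the 9 other members. Junb correlated with Egr1 (r = 0.81, rho = 0.76, adjusted permutation p = 0.00247 and 0.0154), with Ier2 (r = 0.76, rho = 0.68, adjusted p = 0.0054 and 0.0208) and with Jun (r = 0.71, rho = 0.75, adjusted p = 0.009 and 0.0154). Without the 2 farthest tumors these were 0.73, 0.65 and 0.74, and over the 11 tumors 0.79, 0.74 and 0.86. Jun and Egr1 depended on the tumors taken: r was 0.65 over all 16 (rho = 0.58, adjusted permutation p = 0.0234 and 0.0581), 0.44 without IgG replicate 1 (adjusted p = 0.183), and 0.92 over the 11 (rho = 0.94, adjusted p = 0.00292 and 0.00315). R replicate 15, lowest in Jun and second highest in Egr1, lay off the line of the other tumors.

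Egr2 and Egr3 were separated from the rest by the responders, so their relation was read over the other 14 tumors, where r was 0.46 and rho 0.21 (adjusted permutation p = 0.156 and 0.566), and r was -0.03 without the 2 farthest tumors. Fosb and Atf3 gave the lowest value of all pairs, r = -0.26 (rho = -0.36, adjusted permutation p = 0.43 and 0.265). Atf3 passed with Junb (r = 0.71) and Egr1 (r = 0.61, not by rho), and Fosb with none of the 9 other members over the 16 tumors.

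**Figure D4:**
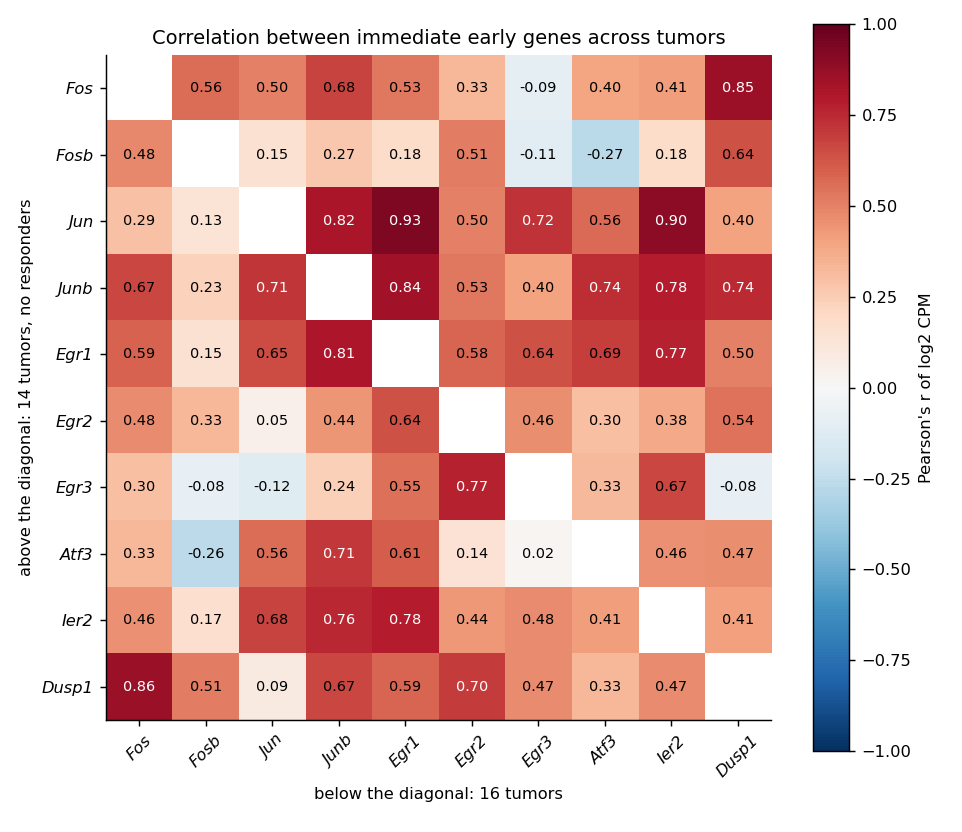
Pearson's r of log2 CPM between members over all 16 tumors (below the diagonal) and over the 14 tumors that are not responders (above it). Fos and Dusp1 stay at 0.86 and 0.85, Jun and Egr1 rise from 0.65 to 0.93, and Egr2 with Egr3, whose value over 16 tumors spans the separate responders, stands at 0.46 without them.

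Each member was then set against 9 measures of the state of a tumor: the mitochondrially encoded share, and the mean log2 CPM of lists for hypoxia, heat shock, proliferation and 5 cell types. Over 16 tumors 8 of 90 relations passed an adjusted permutation p of 0.05 by Pearson's r and 4 by Spearman's rho. The tumors fell into separate clusters on several of these measures, however. On the proliferation list, which holds cell cycle genes such as Mki67 and Top2a, the 3 tumors of high mitochondrial share and the 2 responders lay at 6.96 to 7.30 and the other 11 at 7.47 to 7.73. The relations were therefore read within those 11 tumors, where 3 of 90 passed by r and 4 by rho. What share of all genes relates to these measures as strongly was not tested. The counts and values below thus describe the members and do not set them apart from other genes.

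Within these 11 tumors Jun and Egr1 were lower where the proliferation list was higher. Over the 11 tumors Jun gave r = -0.94 and rho = -0.96 (adjusted permutation p = 0.0045 and 0.0009), and r = -0.95 without the 2 farthest tumors. Egr1 gave r = -0.86 and rho = -0.93 (adjusted permutation p = 0.0436 and 0.0072), and r = -0.83 without the 2 farthest. Outside these 11 tumors the order differed between genes. R replicate 15 had a proliferation level of 6.99, next to the 6.96 of IgG replicate 1, with the lowest Jun level of all tumors (158.0 CPM) where IgG replicate 1 had the highest. The direction was not particular to Jun and Egr1, as r was negative for every member within the 11 tumors. Junb (r = -0.79, rho = -0.80, adjusted permutation p = 0.112 and 0.0886) came close without passing. So did Egr2 (r = -0.73, rho = -0.73, adjusted permutation p = 0.14 and 0.217). For Ier2 and Egr3 the relation did not pass within the 11 tumors either (r = -0.58 and -0.43, rho = -0.49 and -0.25, adjusted permutation p for r = 0.32 and 0.503). Pooled over all 16 tumors, across the separate clusters, Pearson's test passed for Ier2 (adjusted permutation p = 0.0027), Egr1 (0.0045) and Egr3 (0.0368) and not for Jun (0.177). Over the 13 tumors of low mitochondrial share, responders included, Jun did not pass either (adjusted permutation p = 0.819).

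Atf3, a stress-induced repressor of the ATF family, did not pass with the hypoxia list over all 16 tumors. There r was 0.56 and rho 0.60 (adjusted permutation p = 0.142 and 0.129). IgG replicate 1 had the lowest hypoxia level (5.15) and the second highest Atf3 level of all tumors (28.9 CPM). Without that tumor r was 0.81 (adjusted permutation p = 0.0157). On this list the 3 tumors of high mitochondrial share and the 2 responders lay at 5.15 to 5.74. The other 11 lay at 5.19 to 6.07. These ranges overlap, so separate clusters give no reason to read the 11 alone, a set chosen after seeing the data. Within the 11 Atf3 passed, with r = 0.83 and rho = 0.91 (adjusted permutation p = 0.0495 and 0.0087). Without the 2 farthest of these tumors r was 0.68. The relation was not particular to Atf3. Over the 11 tumors Junb passed with the hypoxia list by rho alone (r = 0.71, rho = 0.85, adjusted permutation p = 0.145 and 0.0418). Egr1 (r = 0.76, rho = 0.71) and Jun (r = 0.62, rho = 0.65) were positive without passing, and Fosb was lowest at r = -0.05. Of all genes of at least 1 CPM, those most like Atf3 over the 16 tumors were Slc2a1, which encodes a glucose transporter and is itself on the hypoxia list (r = 0.86), the hexokinase gene Hk2 (0.85) and the histone demethylase gene Kdm3a (0.82), with 0.87, 0.85 and 0.86 over the 14. As they were picked for the highest r, these values are descriptions and no test of the hypoxia relation.

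The mitochondrially encoded share split the tumors into 3 and 13, so no relation was read across all of them. Within the 13, no member passed: Jun gave r = 0.01 and rho = 0.00, and Ier2 r = -0.05 and rho = -0.06 (adjusted permutation p of 0.925 or more). Fosb lay farthest from 0, at r = -0.60 and rho = -0.67 (adjusted permutation p = 0.11 and 0.0732). The T cell list split them into 2 responders and 14 others. Within the 14, Egr2 gave r = 0.38 and rho = 0.23 (adjusted permutation p = 0.591 and 0.754) with it and Egr3 r = 0.24 and rho = 0.41 (adjusted p = 0.794 and 0.504), neither past the threshold. Over the 11 tumors the values were higher, r = 0.56 and rho = 0.48 for Egr2 (adjusted permutation p = 0.32 and 0.456) and r = 0.65 and rho = 0.66 for Egr3 (adjusted p = 0.249 and 0.301), and did not pass. By r both genes were closer to the fibroblast list there. Egr2 gave r = 0.61 and rho = 0.55 (adjusted permutation p = 0.253 and 0.39) with it. Egr3 gave r = 0.74 and rho = 0.65 (adjusted permutation p = 0.145 and 0.301), again without passing. Over the 14 tumors r with the fibroblast list was 0.23 for Egr2 and -0.09 for Egr3. Heat shock genes, which also respond to tissue handling, passed with no member: over the 14 tumors the highest r was 0.46 (Fos, rho = 0.41, adjusted permutation p = 0.451 and 0.504).

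**Figure D5:**
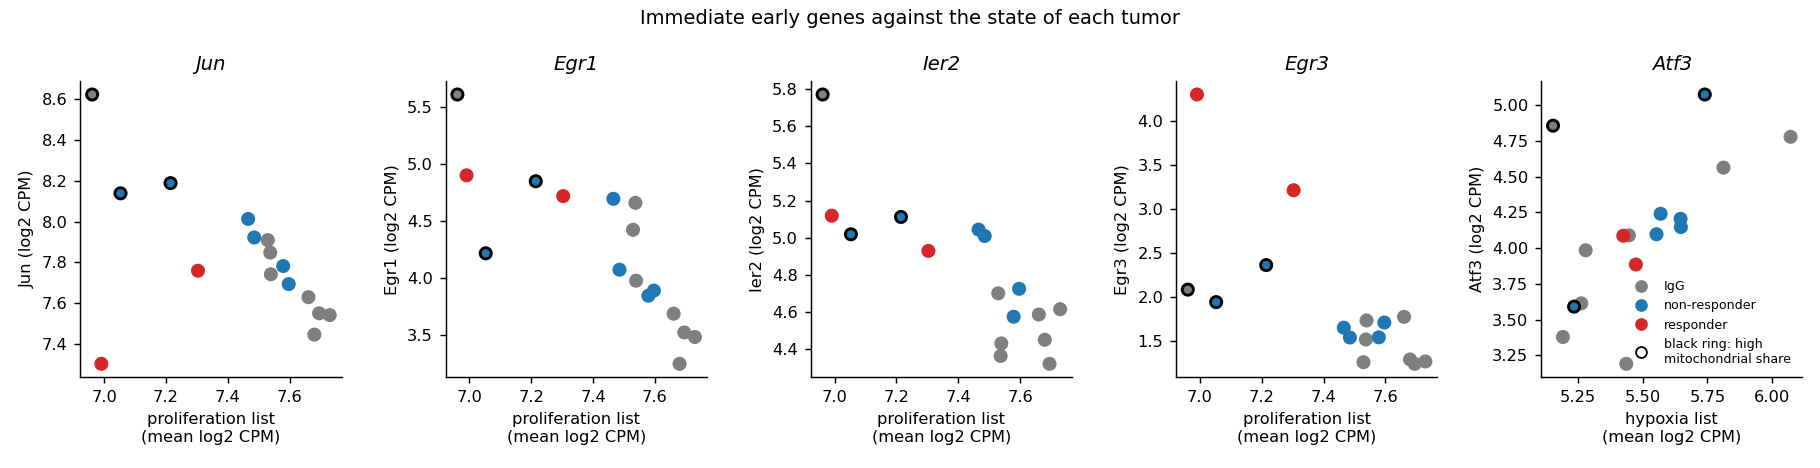
Log2 CPM of Jun, Egr1, Ier2 and Egr3 against the mean log2 CPM of the proliferation list, and of Atf3 against that of the hypoxia list, with a point for each of 16 tumors. The 11 tumors at a proliferation level of 7.47 or more fall along a declining line in the Jun and Egr1 panels, and the responders (red) lie below it for Jun and far above the rest for Egr3.

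The genes most like each of the other members are given last. They were picked for the highest r among all genes of at least 1 CPM. A high r therefore comes with the choice, and the values are descriptions. Ier2, a nuclear protein gene, was closest to Nfkbia, the NF-kB inhibitor (r = 0.95 over 16 tumors and over 14), which is itself rapidly induced. Jun was closest to Nkx6-1 (0.95), Fbf1 (0.95) and Gm48362 (0.94), Junb to the ferritin gene Fth1 (0.89), and Egr1 to Ssc5d (0.94), Gpr157 (0.93) and Irf2 (0.93). Dusp1 was closest to the cytokine gene Osm (0.80) and to Csrnp1 (0.79), another immediate early gene, and Fos to Tmco6 (0.74). Fosb was closest to Tmem19 (0.84).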

How the data were processed

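The 16 tumors were grouped by the labels into IgG (8), aPD-1 NR (6) and aPD-1 R (2). The authors aligned paired reads to GRCm38 with STAR 2.6 and deposited expected counts per Ensembl 91 gene from RSEM 1.3.0, which split reads of similar genes by estimate. These were rounded to whole numbers here, and 92 spike-in entries (at most 0.000549% of counts) were left out. Symbols came from GENCODE mouse release 21.

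Genes were tested with edgeR 4.0.16 (R 4.3.3): TMM scaling, filterByExpr on low counts, robust quasi-likelihood fits of 2 groups (aPD-1 against IgG) or 3 groups (all others) and Benjamini-Hochberg adjustment over 18251 genes. Scripts were tested on simulated data holding 200 changed genes. Log2 CPM used a prior count of 2. Tools were DESeq2 1.42.0, numpy 2.4.6, pandas 2.3.3 and scipy 1.17.1. Members and lists were chosen with earlier results of these data known. All 10 members were named, with up to 5 called genes of smallest p per list and the 3 genes of highest r per member. Myc, Klf10, Gadd45b, Ier5, Atf4, Fosl1, Srf, Creb1, Il2, Nr4a3, Klf2, Sik1, Dusp4, Dusp5 and Dusp6 were added after their values were seen. Wilson intervals cover counting error only.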

Additional observations from a re-analysis of the deposited data

Results flagged for a closer look

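In groups of 4 to 10 tumors, a tumor was singled out when its gap to the nearest other tumor, relative to the range of its group, exceeded Dixon's 95% critical value. Chance alone flags about 1 in 20 groups, and 5 of 22 groups were singled out. Of these, 4 were the same tumor, IgG replicate 1: Jun at 393.7 CPM (others 174.5 to 240.3), Egr1 at 48.64 CPM (others 9.42 to 25.2), Ier2 at 54.57 CPM (others 19.9 to 25.9) and the mitochondrially encoded share at 7.601% (others 2.52% to 3.21%). The fifth was Atf3 in NR replicate 14, at 33.6 CPM (others 11.99 to 18.8), a tumor with a mitochondrially encoded share of 5.73%. The part of RNA quality in these levels was not tested.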

How the results depend on the processing

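No paired analysis was possible because each tumor has a replicate number of its own. The 10 members' calls in aPD-1 and in NR against IgG stayed at 0 under all alternatives run. Between R and NR, 2 members fell to 1 with no filter on low counts and to 1 with only the 2 groups compared (Egr2, adjusted p = 0.0713 and 0.0796), and to between 1 and 2 on leaving out a tumor. Against IgG, leaving out a tumor gave 1 to 2. A lone responder was taken to vary like tumors of the other groups. Of 528 single fold changes under alternatives, 496 kept direction and side, 13 kept direction but lost the call (all Egr2) and 19 reversed. All genes called between aPD-1 and IgG rose from 0 to 90 with DESeq2 and 234 with the weighted contrast. Reversed were Junb between R and NR (0.0042 with at least 10 counts in at least 8 tumors) and, on leaving out a tumor, values near 0: for aPD-1 against IgG, Fos (-0.0212 to 0.2354), Fosb (-0.1599 to 0.0422), Jun (-0.0115 to 0.1955) and Atf3 (-0.1252 to 0.1751), and for R against NR, Fosb (-0.2872 to 0.0303), Junb (-0.2175 to 0.0508) and Ier2 (-0.0683 to 0.1407). The 16 member pairs became 12 to 18 without a tumor and 8 in the 11 tumors. The 8 state relations became 4 (without IgG replicate 7) to 10, 5 without R replicate 16 (counted by Pearson's r), 15 in the 13 tumors of low mitochondrial share and 3 in the 11. These 13 and 11 tumors were chosen after seeing the data, and fewer tumors leave less power. Only 2 responders limit every comparison that uses them.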
